A study of Mus musculus with 96 samples.

Results

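EpiRE mice carry a working core clock gene, Arntl (also called Bmal1), in the epidermis and other K14Cre-active epithelia but not in the rest of the body, and this section compares the expression level of every gene in their back-skin epidermis with that of wild-type (WT) mice. All 24 EpiRE and all 24 WT libraries were taken, 48 of the 96 libraries of the series, from the authors' log2 RPKM tables of these genotypes (reads scaled to gene length and library size, on a log2 scale). The groups were chosen by genotype label alone. Each genotype was sampled at 6 circadian times (CT), 4 h apart, with 4 mice labelled as biological replicates at each time, all after about a week of constant darkness. The mice were 8-week-old C57BL/6 females.

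EpiRE mice carried 2 stopFL alleles of Arntl (stopFL/stopFL), were tg/wt for K14Cre and were wt/wt for Syt10-Cre. In the stopFL allele a stop cassette flanked by loxP sites blocks the gene until Cre recombinase removes it. K14Cre is active in keratinocytes and other epithelia that use the keratin 14 promoter, and Syt10-Cre in the suprachiasmatic nucleus and some other neurons, so EpiRE mice have no functional central clock. WT mice were wt/wt at Arntl, wt/tg for K14Cre and tg/wt for Syt10-Cre, so WT and EpiRE both carry K14Cre, while only WT carries Syt10-Cre. The 2 other genotypes, used for reference only, are also stopFL/stopFL at Arntl and tg/wt for Syt10-Cre, RERE being tg/wt and BRE wt/wt for K14Cre. A difference between EpiRE and WT can therefore follow the absence of clocks elsewhere in the body, the stopFL allele or the Syt10-Cre transgene, and these cannot be told apart in this contrast.

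In the molecular clock, ARNTL pairs with CLOCK or NPAS2 and binds E-box sequences of Per, Cry, Nr1d1 and PAR bZIP genes such as Dbp. PER and CRY proteins inhibit the pair, and NR1D1 represses Arntl itself. In the epidermis the clock is known for timing DNA replication, differentiation and metabolism of keratinocytes, and signals from the brain are known to set its phase.

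EpiRE libraries held 11.41 to 18.45 M recovered reads (M for mega) and WT libraries 12.07 to 17.8 M. Of 22497 genes, the 11059 with a mean of at least 1 RPKM over the 48 libraries were tested. The library EpiRE CT0 replicate 1 stood apart, with a median correlation of 0.956 to the other EpiRE libraries, 5.17 scaled median absolute deviations under the median of all 48. Markers of endothelium, adipocytes and red blood cells all fell below the level for testing, and the summed level of the 8 endothelial and pericyte markers was at most 9.31 RPKM in any library. Arntl was read in every library, from 3.64 to 4.90 log2 RPKM in EpiRE (median 4.11) and from 2.51 to 4.97 in WT (median 3.94). Reads over Arntl were not lower in BRE, which lacks K14Cre, than in WT: the BRE mean was 3.88 ± 0.14 (SD, n = 24) beside 3.88 ± 0.83 in WT. EpiRE was 0.28 ± 0.06 (SE) above BRE (limma adjusted p = 0.000463). Nr1d1, a target of ARNTL, was -3.41 log2 units from WT in BRE and 0.20 in EpiRE.

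The level of most genes was close to that of WT. With CT as a factor, limma called, at an adjusted p under 0.05 (Benjamini-Hochberg), 247 of 11059 genes (2.23%), 103 higher in EpiRE (0.931%) and 144 lower (1.3%). The differences were small: the median absolute difference of called genes was 0.32 log2 units, 50 reached 0.5 and 6 reached 1. Of the called genes, 177 had the same sign at all 6 times. No tested gene had EpiRE and WT libraries that did not overlap. The called gene nearest the threshold was Ano7 (0.31, adjusted p = 0.0496) and the nearest gene outside it was the clock gene Hlf (0.23, adjusted p = 0.0519). The count of 247 fell to between 55 and 230 when the 12 libraries of both genotypes with 1 replicate number were left out, and lay between 203 and 284 when any 1 library was left out. Without EpiRE CT0 replicate 1 it was 284.

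**Figure D1:**
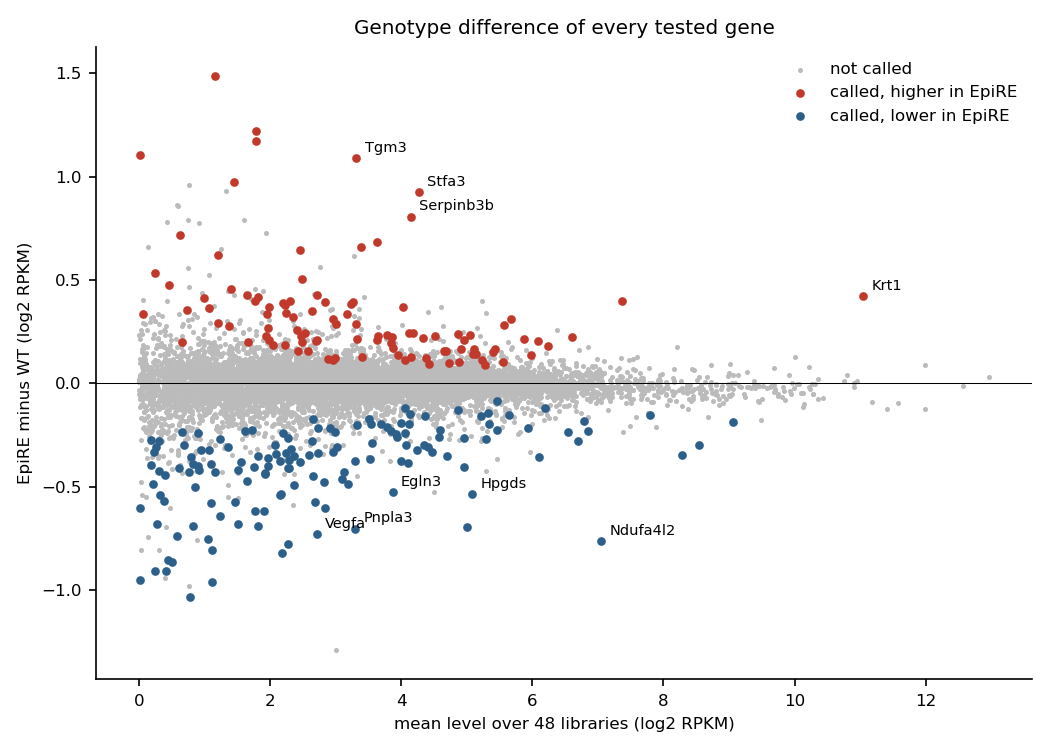
Each point is 1 of the 11059 tested genes, with its mean level over 48 libraries (log2 RPKM) on the x axis and its EpiRE minus WT difference (log2 RPKM) on the y axis. The 103 genes called higher (red) and the 144 called lower (blue) lie mostly within 0.5 log2 units of 0, and grey genes were not called.

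Genes of the response to low oxygen were lower in EpiRE. Cells respond to hypoxia through HIF transcription factors, which prolyl hydroxylases destabilise while oxygen is present, and HIF targets include genes for vessel growth, lactate export and glycolysis. This list, like the other lists below, was chosen with earlier results of these data known, so its counts are a description. Of 14 tested genes of this list, 10 fell and none rose, against 1.3% of all tested genes, and all 14 differences were negative, with a median of -0.28 beside 0.00 for all genes. Without EpiRE CT0 replicate 1 the count was again 10, without any 1 library it stayed at 10, and without the libraries of 1 replicate number it was 5 to 8. The summed level of the list was 213 to 429 RPKM in EpiRE (median 286) and 307 to 520 RPKM in WT (median 384).

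Ndufa4l2, a mitochondrial protein gene induced by hypoxia (chr10:127514967-127517154, mm10), ranged from 6.02 to 7.59 log2 RPKM in EpiRE (median 6.65) and from 6.84 to 8.06 in WT (median 7.37). The EpiRE level was under the WT median in 22 of 24 libraries, and the ranges overlapped. Its difference of -0.77 ± 0.10 (SE) is 1.70-fold lower, adjusted p = 7.44e-06. Vegfa, which encodes the growth factor of blood vessels (chr17:46016993-46032369), ranged from 1.04 to 3.19 log2 RPKM in EpiRE (median 2.27) and from 2.20 to 3.69 in WT (median 3.07). It was under the WT median in 23 of 24 EpiRE libraries, and its difference was -0.73 ± 0.12, 1.66-fold lower, adjusted p = 9.89e-05. Slc16a3, the lactate exporter MCT4, differed by -0.62 ± 0.13 (adjusted p = 0.00542). The HIF prolyl hydroxylase gene Egln3 differed by -0.53 ± 0.11 (adjusted p = 0.00434), and its relative Egln1 by -0.16 ± 0.04 (adjusted p = 0.0196). The calls of Ndufa4l2, Vegfa and Egln3 held under every alternative run, and that of Slc16a3 was lost without replicate 1. The other genes of the list that fell were Ankrd37, Bnip3, Car12, P4ha1 and Higd1a, at -0.47 to -0.24. Adm, Ddit4, Pdk1 and Kdm3a did not pass the test, at -0.21 to -0.05.

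Glycolytic enzymes, many of them HIF targets, were also lower. Of 14 genes, 6 fell (1.3% of all tested genes did) and none rose, with a median of -0.13. Tpi1, triosephosphate isomerase, was 1.21-fold lower, at -0.28 ± 0.05 (adjusted p = 0.00084), Pfkl, a phosphofructokinase, was at -0.26 ± 0.06 and Eno1, enolase, at -0.23 ± 0.05. Pgk1, Gapdh and Aldoa, further enzymes of the pathway, were at -0.23, -0.18 and -0.15. The falls of Tpi1, Pfkl, Eno1 and Pgk1 were largest at CT0 and CT16. Pfkl was at -0.63 and -0.52 at these times and at -0.004 at CT4. No gene of the list was called for the interaction of genotype and CT, which is tested below. The glucose transporter gene Slc2a1 and Ldha, lactate dehydrogenase, did not pass, at -0.04 and -0.13. Leaving out 1 library gave 4 to 8 lower genes and leaving out 1 replicate number 1 to 4, and without EpiRE CT0 replicate 1 there were 5. Oxidative phosphorylation, the other route to ATP, had 0 of 20 genes called in either direction by limma and a median of -0.01. The list of immediate early genes, which handling of tissue can induce, had 0 of 14 called, a median of -0.07, and summed levels of 5100 to 15200 RPKM in EpiRE and 4810 to 14600 RPKM in WT.

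The hypoxia element bound by HIF holds the core ACGTG or GCGTG. The 250 bases before every listed start of a gene were searched (RefSeq, GRCm38.p6), and a match before any start counted. Genes with more starts thus had more chances of a match. ACGTG or GCGTG on either strand was found for 12 of 13 hypoxia genes and 12 of 14 glycolysis genes with a promoter. It was found for 5478 of all 8680 tested genes with a promoter (63.1%). Among all genes called lower it was found for 68 of 113 (60.2%), and among clock repressors and PAR bZIP factors for 10 of 11 (90.9%). The promoters of a hypoxia gene and a glycolysis gene that fell are shown with these words in capitals: Slc16a3 (chr11:120948817-120949066, plus strand), with words starting 27 and 14 bases before the start, and Pgk1 (chrX:106186850-106187099, plus strand), with words 150 and 131 bases before it. Each is the first listed start whose window holds such a word. The window of Slc16a3 lies inside the gene's span (chr11:120948480-120960868). The call of Pgk1 was close to the threshold (adjusted p = 0.0486) and was lost without any of 32 single libraries.
Slc16a3: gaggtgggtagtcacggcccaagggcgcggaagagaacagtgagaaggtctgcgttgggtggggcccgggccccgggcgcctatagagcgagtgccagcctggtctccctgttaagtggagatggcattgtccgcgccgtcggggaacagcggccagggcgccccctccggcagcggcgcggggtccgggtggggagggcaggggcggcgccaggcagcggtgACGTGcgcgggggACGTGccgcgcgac
Pgk1: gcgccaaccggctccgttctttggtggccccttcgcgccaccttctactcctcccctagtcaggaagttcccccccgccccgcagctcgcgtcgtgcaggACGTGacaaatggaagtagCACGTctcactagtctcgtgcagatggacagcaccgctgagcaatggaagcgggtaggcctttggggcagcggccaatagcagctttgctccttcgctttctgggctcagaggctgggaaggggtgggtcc
A match is a description of letters, and binding was not measured.

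Protease inhibitors of the outer epidermis were higher in EpiRE. Stefins inhibit cysteine proteases of the cathepsin type, and clade B serpins are intracellular inhibitors of serine and cysteine proteases. This list too was chosen with earlier results of these data known. Of 8 tested genes of these families, 5 rose and none fell, against 0.931% of all tested genes, with a median of 0.75. The count was 5 without any 1 library, EpiRE CT0 replicate 1 included, and 1 to 4 without the libraries of 1 replicate number. Serpinb3b (chr1:107153940-107278361) ranged from 2.98 to 5.22 log2 RPKM in EpiRE (median 4.66) and from 2.96 to 4.38 in WT (median 3.87). It was above the WT median in 20 of 24 EpiRE libraries, 1.75-fold higher on average (0.81 ± 0.13, adjusted p = 0.000185). Serpinb12 differed by 0.69 ± 0.16 (adjusted p = 0.013) and also by time, being called in the interaction test below (adjusted p = 0.00447).

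The stefins varied more between mice. Stfa3 ranged from 3.13 to 5.80 log2 RPKM in EpiRE (median 4.95) and from 1.61 to 5.51 in WT (median 3.95), a difference of 0.93 ± 0.23 (adjusted p = 0.019). Stfa1 ranged from 0.42 to 3.25 log2 RPKM in EpiRE (median 2.53) and from -4.69 to 3.59 in WT (median 1.61), with the lowest WT library far under every EpiRE library, and its difference was 1.17 ± 0.30 (adjusted p = 0.0202). BC100530, a further stefin A gene, was at 1.22 ± 0.32 (adjusted p = 0.0272). Stfa1, Stfa3 and BC100530 lie together on chromosome 16 as closely related copies, so reads may be divided between them and the genes are not independent. The calls of Stfa1 and BC100530 were lost with limma-voom on recovered reads and with no CT term, that of BC100530 also with log2(RPKM + 1), and each without the libraries of any of 3 replicate numbers. Csta1, Cstb and Serpinb5 did not pass, at 0.07, -0.08 and 0.04.

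**Figure D2:**
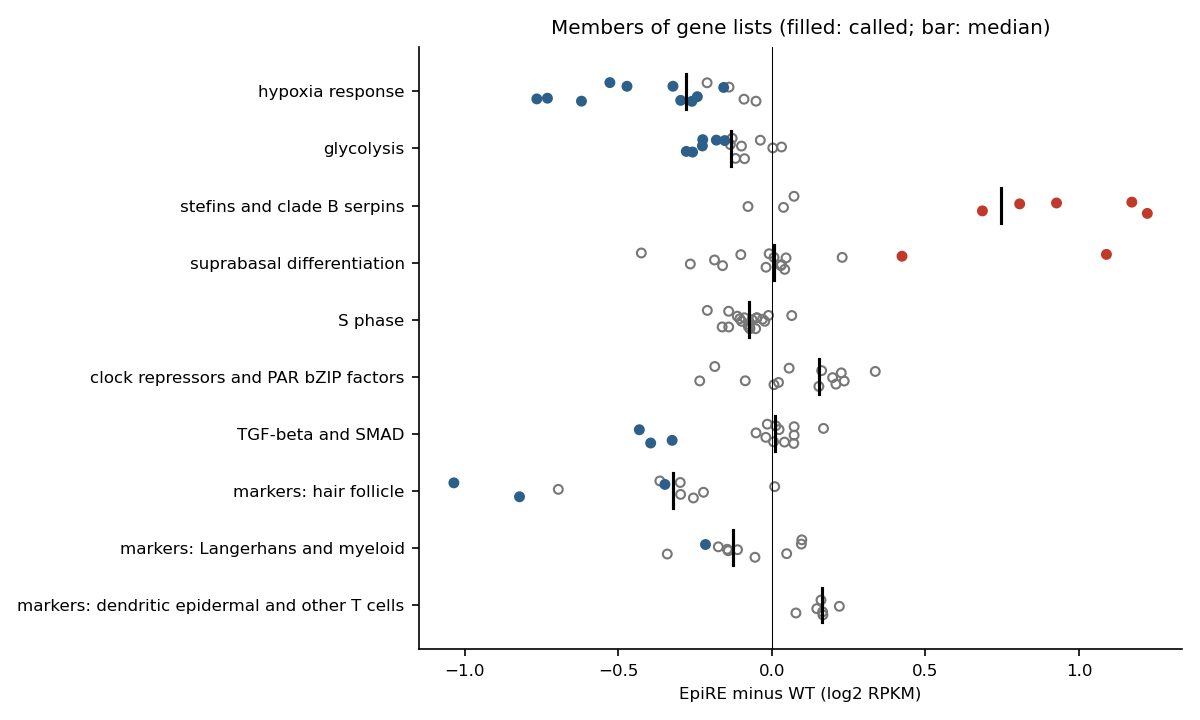
EpiRE minus WT differences (log2 RPKM, x axis) of the tested members of 10 gene lists. Filled points were called (red higher, blue lower), open points were not, and the black bar is the list's median; all 14 hypoxia genes lie left of 0, and 5 of 8 stefins and serpins lie right of 0.5.

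Among genes of suprabasal differentiation, 2 of 15 rose, beside 0.931% of all tested genes, and the median was 0.01. Tgm3, the transglutaminase that cross-links proteins of the cornified envelope and hair (chr2:130012349-130050399), ranged from 2.73 to 4.90 log2 RPKM in EpiRE (median 3.88) and from 0.87 to 4.12 in WT (median 2.91). It was above the WT median in 22 of 24 EpiRE libraries and 2.13-fold higher on average (1.09 ± 0.18, adjusted p = 0.000185). Krt1, the keratin that pairs with Krt10 above the basal layer (chr15:101845426-101850794), is far more abundant. It ranged from 10.75 to 11.73 log2 RPKM in EpiRE (median 11.27) and from 10.43 to 11.23 in WT (median 10.79), above the WT median in 23 of 24 libraries, and differed by 0.42 ± 0.07 (adjusted p = 9.89e-05). Its partner Krt10 did not pass, at 0.03, nor did the cornified envelope genes Lor (0.05) and Ivl (-0.10), and Klk7, a protease of desquamation, was at -0.42 (adjusted p = 0.457). None of the 13 basal keratinocyte genes and none of the 13 barrier lipid genes were called, with medians of 0.04 and 0.04. Leaving out EpiRE CT8 replicate 1, EpiRE CT20 replicate 1 or WT CT4 replicate 3 added 1 lower gene to the suprabasal list.

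The other 7 named genes that rose were Snord16a, Rassf6, Endou, Mt4, Krt32, Sox15 and Cyp2b19. Rassf6, a RAS association domain gene, was at 0.64 ± 0.11 (adjusted p = 0.000403). Endou, a uridine-specific endoribonuclease gene, was at 0.51 ± 0.09 (adjusted p = 0.000525). Each was above the WT median in 23 of 24 EpiRE libraries. Rassf6 was also called in the interaction test below (adjusted p = 0.00871), with differences from 0.07 at CT4 to 1.67 at CT12. Mt4, the metallothionein of stratified epithelia, was at 0.40, the hair keratin gene Krt32 at 0.40, the transcription factor gene Sox15 at 0.39 and the keratinocyte cytochrome P450 gene Cyp2b19 at 0.38. Snord16a, a small nucleolar RNA inside a host gene, was at 0.66 ± 0.16, and its reads may come from that host. Of these 7 and the 5 named before, the calls of Tgm3, Serpinb3b, Rassf6, Endou and Krt1 held when the libraries of any replicate number were left out. Those of the other 7 were lost without at least 1 replicate number, and that of Krt32 without any of 16 single libraries.

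The other named genes that fell belong to none of the lists. Hpgds, the hematopoietic prostaglandin D synthase (chr6:65117293-65144908), ranged from 4.31 to 5.25 log2 RPKM in EpiRE (median 4.87) and from 4.83 to 5.63 in WT (median 5.48). All 24 EpiRE libraries were under the WT median, and the difference was -0.54 ± 0.07 (adjusted p = 3.00e-06), 1.45-fold lower. The same held for the phospholipid flippase gene Atp10a (-0.49 ± 0.07, adjusted p = 7.44e-06) and for Csrp2, a LIM domain protein gene (-0.61 ± 0.10, adjusted p = 9.89e-05), with 24 of 24 libraries under the WT median. Gabrp, the pi subunit of the GABA receptor, was at -0.46 ± 0.07 (adjusted p = 5.38e-05).

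Pnpla3, a lipase of lipid droplets, was at -0.70 ± 0.17 (adjusted p = 0.0119), and Cyp17a1, the steroid 17-alpha hydroxylase, at -0.49 ± 0.12 (adjusted p = 0.0196). The Wnt ligand gene Wnt16 was at -0.57 ± 0.12, the interferon-induced membrane protein gene Ifitm6 at -0.70 ± 0.15 and Smim24, a small membrane protein gene, at -0.48 ± 0.12. The calls of these 5 genes were lost without at least 1 replicate number; those of Hpgds, Atp10a, Csrp2 and Gabrp held. In the TGF-beta and SMAD list, 3 of 14 genes fell, beside 1.3% of all tested genes: the ligand genes Tgfb2 (-0.39) and Tgfb3 (-0.32) and Ltbp1 (-0.43), which encodes a binding protein of latent TGF-beta. The receptor genes Tgfbr1 and Tgfbr2 and the SMAD genes did not pass, and the list's median was 0.01. Leaving out any of 17 single libraries lowered this count to 1. Others lowered it to 2, EpiRE CT0 replicate 1 among them, and without the libraries of 1 replicate number it was 0 to 2. When each of the 48 libraries was left out in turn, the call of Tgfb2 held in 22 runs and that of Tgfb3 in 18.

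**Figure D3:**
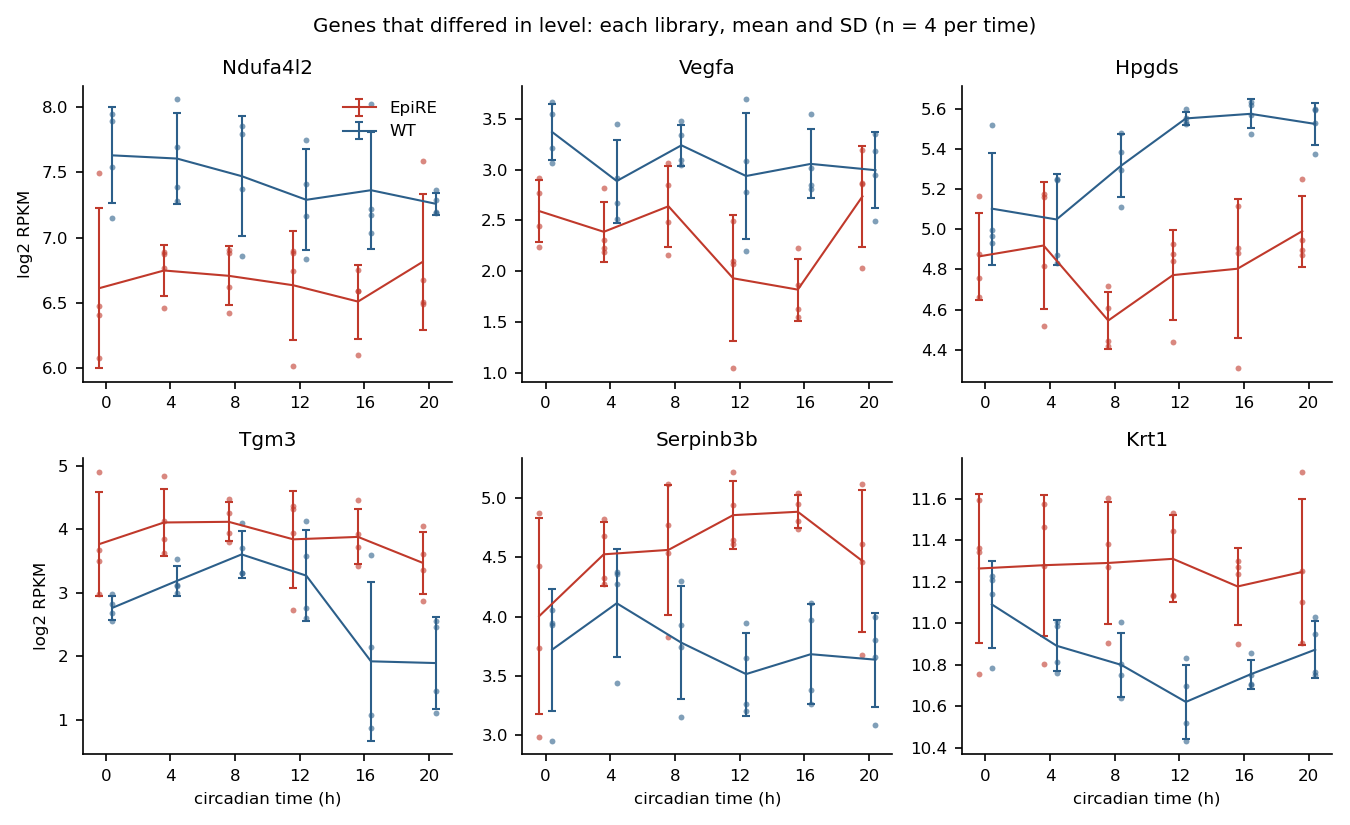
Log2 RPKM (y axis) by circadian time in hours (x axis) of 6 genes that differed in level, with every library as a point and the mean and SD of 4 mice as lines and bars. Ndufa4l2, Vegfa and Hpgds were lower in EpiRE (red) than in WT (blue) at all 6 times, and Tgm3, Serpinb3b and Krt1 were higher at all 6.

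Some markers of other cells and structures also differed in level. Of 10 hair follicle genes, 3 fell, beside 1.3% of all tested genes, and the median was -0.32: Shisa2 was at -1.04 ± 0.18 (adjusted p = 0.000343), Lhx2, a transcription factor of hair follicle stem cells, at -0.82 ± 0.14 (adjusted p = 0.000377), and Krt79, a keratin of the follicle's upper part, at -0.35 ± 0.10 (adjusted p = 0.0492). The follicle list summed to 531 to 1000 RPKM in EpiRE (median 656) and to 548 to 997 RPKM in WT (median 804). The call of Krt79 was lost without any of 38 single libraries, and 2 to 4 genes of the list were called lower without any 1 library. Of 10 Langerhans and myeloid genes 1 fell, Epcam (-0.22), with summed levels of 143 to 327 RPKM in EpiRE and 144 to 397 RPKM in WT and a median difference of -0.13. All 6 T cell genes were positive, at a median of 0.16, and none passed, with sums of 29.3 to 140 RPKM in EpiRE and 22.4 to 114 RPKM in WT. No marker of these lists was at 0 in all 48 libraries. In bulk epidermis, fewer cells of a type and less RNA per cell cannot be told apart, and the part of these markers in the results above was not tested. Among stress keratins and alarmins 1 of 5 fell, Krt17 (-0.30), a keratin of follicles and of injured epidermis, and among nerve and Schwann genes 1 of 2, Mbp (-0.15). Fibroblast, muscle, melanocyte and hair shaft markers had no called gene among the 1 or 2 tested in each.

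Other lists had no called gene in either direction in limma's test of level. They were G2/M phase, the late cornified envelope, sebaceous gland, cholesterol synthesis, cytosolic ribosomal proteins, NRF2, heat shock, unfolded protein response, cold-inducible, glucocorticoid response, p53, interferon, fasting, retinoid, EGFR and Notch genes, with medians between -0.15 and 0.05. Their members of smallest p included Psmb8 of the interferon list (-0.18, adjusted p = 0.129) and Pnpla1 of barrier lipids (0.23, adjusted p = 0.0856). Leaving out 1 library brought 1 call into 3 lists: NRF2 without WT CT16 replicate 1, EGFR without EpiRE CT8 replicate 1, and barrier lipids without EpiRE CT8 replicate 1, WT CT0 replicate 4 or WT CT4 replicate 1. The S phase list had 0 of 20 called and a median of -0.07, with 19 of 20 differences negative.

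Clock genes differed from WT by time of day, and none passed the test of average level. Among the 5 clock activators and the 13 clock repressors and PAR bZIP factors tested, limma called none in level, with medians of 0.12 and 0.15. Arntl was at 0.28 ± 0.12 (adjusted p = 0.329), Clock at 0.12, Per2 at 0.34, Cry1 at 0.16 and Nr1d1 at 0.20. When genotype was averaged over CT in the model with the interaction the difference of Arntl was called (adjusted p = 0.0151). Hlf, a PAR bZIP factor gene just outside the threshold, was called without any of 16 single libraries. The interaction of genotype and CT was called for 109 of 11059 genes (0.986%), 1587 at an unadjusted p under 0.05, and for 3 of the 5 activators and 10 of the 13 repressors and PAR bZIP factors. Of the 109, 4 were also called in level. Time of EpiRE libraries rests on the column names of the authors' tables, and the replicates come from separate mice per the labels.

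The interaction took the form of a flatter time course in EpiRE for most of these genes. The range of the 6 time means was wider in WT for 98 of the 109 (89.9%), beside 59.8% of all tested genes, with median ranges of 0.94 log2 units in WT and 0.52 in EpiRE. Since a gene with a wide range in either genotype is the more likely to be called, this is a description of the called genes. WT reached its highest mean at CT8 for 26 and at CT12 for 28 of the 109. The count was 9 to 163 without the libraries of 1 replicate number, and rose from 109 to 175 and 167 without EpiRE CT8 replicate 1 or EpiRE CT16 replicate 1. Without EpiRE CT0 replicate 1 it was 132.

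Arntl itself (chr7:113207465-113314126) had 2.97, 2.98, 2.51 and 2.53 log2 RPKM in the 4 WT mice at CT12, its lowest time, and 4.17, 4.27, 4.10 and 3.75 in the EpiRE mice. At CT20 the WT mice had 4.69, 4.85, 4.71 and 4.72 and the EpiRE mice 4.60, 4.04, 4.06 and 4.11. EpiRE was thus above every WT mouse at the WT trough and below every WT mouse at CT20, by 1.32 and -0.54 on average. The time means of Arntl spanned 2.00 log2 units in WT and 0.61 in EpiRE (interaction adjusted p = 1.06e-05). Npas2, the alternative partner of ARNTL, spanned 2.57 in WT and 1.11 in EpiRE (adjusted p = 0.00679), and Clock itself was not called (0.268).

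The repressors showed the same kind of difference at other hours. Nr1d1, which represses Arntl, was at 7.40, 7.37, 7.25 and 7.45 log2 RPKM in WT mice at CT8 and at 6.42, 5.98, 5.82 and 5.80 in EpiRE mice. At CT20 the WT mice had 3.19, 3.27, 3.38 and 3.35, and the EpiRE mice 3.56, 5.86, 5.72 and 5.47. All EpiRE mice lay below WT at the WT peak and above it at the trough, and replicate 1 at CT20 was close to the WT mice. Nr1d1 spanned 4.07 in WT and 1.16 in EpiRE (adjusted p = 0.000392). Per2, a period gene, spanned 5.40 and 1.56 (adjusted p = 0.000848). Its means at CT12 were 4.86 ± 0.11 in WT and 2.90 ± 0.42 in EpiRE. The cryptochrome genes Cry1 and Cry2 spanned 2.57 and 1.30 in WT and 0.54 and 0.34 in EpiRE (adjusted p = 8.47e-05 and 0.000898). Per1 (adjusted p = 0.457), Bhlhe40 (0.861) and Nfil3 (0.641) were not called, with ranges of 1.01, 1.02 and 1.66 in EpiRE and 1.55, 1.23 and 1.64 in WT.

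Dbp, a PAR bZIP transcription factor gene and E-box target, spanned 5.43 in WT and 1.66 in EpiRE (adjusted p = 0.0012). At CT8 the WT mice had 6.72, 6.57, 6.94 and 7.04 log2 RPKM and the EpiRE mice 5.36, 4.73, 5.04 and 4.86. At CT0 the WT mice had 1.35, 1.62, 0.99 and 1.62 and the EpiRE mice 4.13, 4.51, 1.34 and 4.35. Replicate 3 of EpiRE thus lay within WT at CT0, and the other 3 mice lay above it. Tef, of the same family, spanned 3.06 and 1.03 (adjusted p = 0.000444). The interaction calls of Cry1, Nr1d1, Tef, Per2, Cry2 and Dbp were lost without replicate 2 of both genotypes (adjusted p = 0.0563 to 0.176), and those of Nr1d1, Tef, Rdh12, Cry2 and Dbp without replicate 4 (0.0532 to 0.172).

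**Figure D4:**
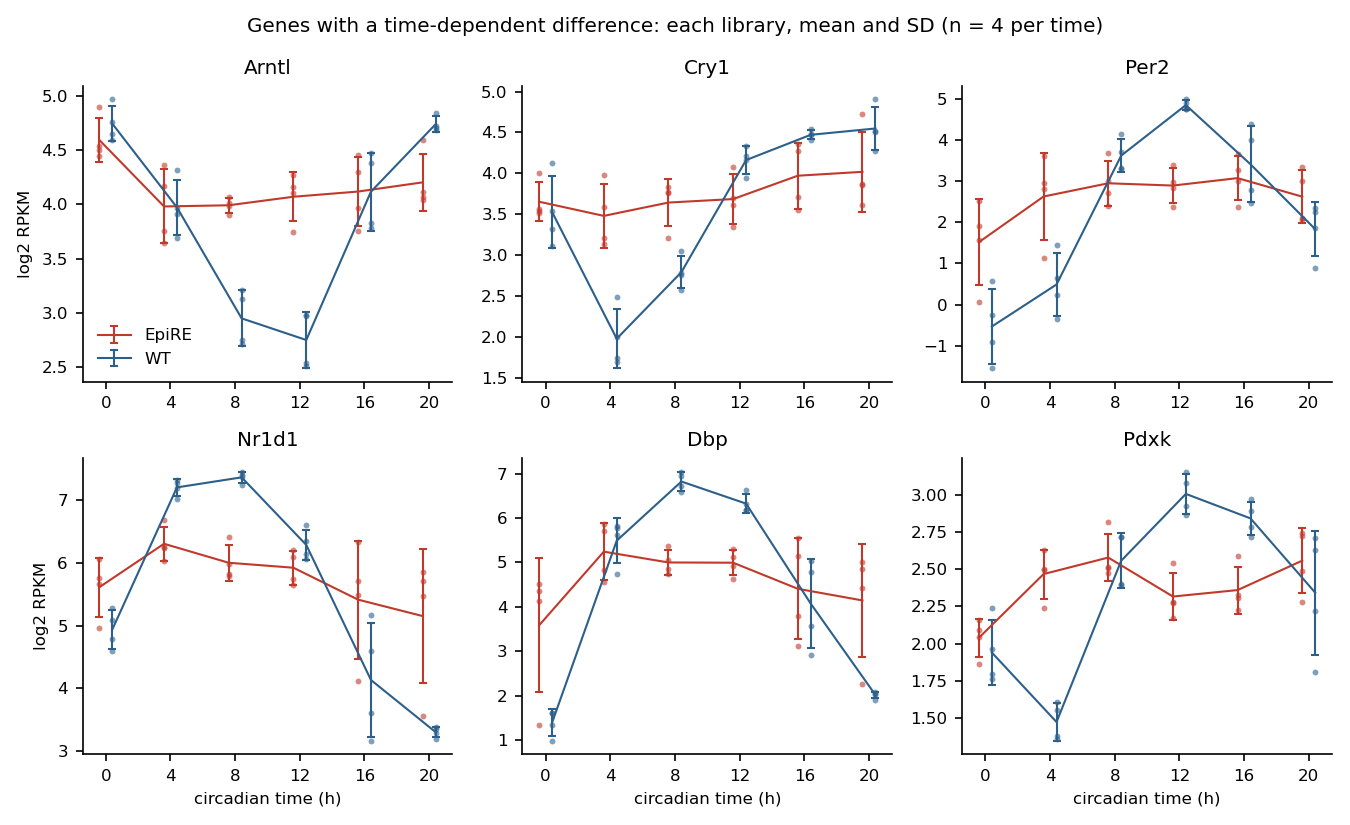
Log2 RPKM (y axis) by circadian time in hours (x axis) of 6 genes called in the interaction test, with every library as a point and the mean and SD of 4 mice as lines and bars. In each panel the WT means (blue) span a wider range than the EpiRE means (red), 2.00 against 0.61 for Arntl and 5.43 against 1.66 for Dbp.

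The promoters of 3 of these genes are shown because each holds the E-box CACGTG, in capitals, in the 250 bases before a listed start (RefSeq, GRCm38.p6). They are Cry1 (chr10:85185055-85185304, minus strand), with the E-box starting 60 bases before the start, Pdxk (chr10:78464949-78465198, minus strand), with it 180 bases before, and Tef (chr15:81802423-81802672, plus strand), with it 127 bases before. Each is the first listed start whose window holds the word. The window of Tef lies inside the gene's span (chr15:81802421-81826863).
Cry1: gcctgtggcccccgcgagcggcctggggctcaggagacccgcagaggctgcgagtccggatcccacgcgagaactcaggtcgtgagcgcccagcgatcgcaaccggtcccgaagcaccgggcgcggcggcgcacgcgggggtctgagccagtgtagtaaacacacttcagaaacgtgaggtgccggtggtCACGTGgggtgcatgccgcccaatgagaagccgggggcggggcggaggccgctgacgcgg
Pdxk: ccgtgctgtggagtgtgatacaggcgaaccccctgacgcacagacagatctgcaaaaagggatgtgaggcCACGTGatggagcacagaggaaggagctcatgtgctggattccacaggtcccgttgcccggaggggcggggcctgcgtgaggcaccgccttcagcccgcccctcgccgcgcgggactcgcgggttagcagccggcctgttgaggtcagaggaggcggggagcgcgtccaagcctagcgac
Tef: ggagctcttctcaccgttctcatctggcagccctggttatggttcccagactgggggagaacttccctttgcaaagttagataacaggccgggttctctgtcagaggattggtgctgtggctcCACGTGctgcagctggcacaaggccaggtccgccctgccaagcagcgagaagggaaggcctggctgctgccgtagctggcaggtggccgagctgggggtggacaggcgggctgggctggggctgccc
This word, which reads the same on both strands and contains ACGTG, was before any listed start in 4 of 11 clock repressors and PAR bZIP factors with a promoter. It was in 12 of 90 genes called in the interaction test (13.3%) and in 901 of all 8680 (10.4%), so the share among called genes was near that of all genes. The word TTANGTAA of PAR bZIP factors, on either strand, was in 3 of the 90 (3.33%) and in 140 of the 8680 (1.61%).

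Some genes beyond the core loop were also called in the interaction test. Of 11 clock output genes these were 3, Pdxk, Tnxb and Ttc9, each with a wider range of time means in WT, and none was called in level. Usp2 and Por, which were not called, had wider ranges in EpiRE (1.17 beside 0.78 and 0.26 beside 0.20). Pdxk, pyridoxal kinase, a target of PAR bZIP factors, had 1.37, 1.35, 1.55 and 1.60 log2 RPKM in WT mice at CT4 and 2.50, 2.63, 2.50 and 2.24 in EpiRE mice. At CT12 the WT mice had 3.16, 3.08, 2.87 and 2.93 and the EpiRE mice 2.17, 2.27, 2.54 and 2.28. The genotypes did not overlap at either time, and the sign changed between them (interaction adjusted p = 1.06e-05). Tnxb, which encodes the matrix protein tenascin X, spanned 1.03 in WT and 0.40 in EpiRE (adjusted p = 9.77e-05). Rdh12, a retinol dehydrogenase gene and the 1 of 7 retinoid genes called here, spanned 0.72 and 0.10 (adjusted p = 0.000611). Il33, an alarmin of keratinocyte nuclei, was at 5.05, 4.91, 4.40 and 4.52 in WT mice at CT12 and at 6.23, 5.97, 6.06 and 5.66 in EpiRE mice. At CT0, CT4, CT16 and CT20 its means differed by at most 0.06, so its level call (0.31, adjusted p = 0.0463) came from CT8 and CT12. That call was lost without any of 28 single libraries. Of the 20 S phase genes, 9 were called in the interaction test, beside 0.986% of all tested genes, among them Mcm2, Mcm3, Mcm5 and Mcm6 of the replicative helicase, and 10 without EpiRE CT0 replicate 1. The SDs of these 4 Mcm genes over 24 libraries were 0.52, 0.47, 0.54 and 0.32 in EpiRE. In WT they were 0.55, 0.55, 0.55 and 0.40. Ccne1, also called, had an SD of 0.76 in EpiRE and 0.38 in WT. These SDs mix differences between times and between mice. No G2/M phase gene of 20 was called.

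No gene passed a test of whether mice of the same genotype and time differed more from each other in EpiRE than in WT. Limma on absolute deviations from the time mean called 0 of 11059 genes (0%), with 1158 at an unadjusted p under 0.05 and a smallest adjusted p of 0.0711. The median over genes of the mean absolute deviation was 0.116 log2 units in EpiRE and 0.115 in WT. Clock genes with larger values in EpiRE included Dbp (0.66 beside 0.30), Nr1d1 (0.40 beside 0.23) and Npas2 (0.37 beside 0.19), none of which were called, while Arntl had 0.18 in both.

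The level differences were set beside the other genotypes with the stopFL allele. EpiRE differed from RERE, which has clocks in epidermis and brain, in 1 of 11042 genes by limma (0.00906%), 653 at an unadjusted p under 0.05. That gene was B4galt4, a galactosyltransferase gene, at -0.34 ± 0.06 (adjusted p = 0.00874), and the next was Pnpla3, at -0.79 (adjusted p = 0.0536). EpiRE differed from BRE, which lacks the epidermal clock, in 3737 of 11002 genes (34%), 2520 higher and 1217 lower, or 1545 higher and 1727 lower after median-of-ratios centring. EpiRE minus WT, RERE minus WT and BRE minus WT share the WT libraries, so their values are only given side by side.

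For Ndufa4l2 they were -0.77, -0.84 and -0.38 log2 units, for Vegfa -0.73, -0.70 and -0.69, and for Hpgds -0.54, -0.52 and -0.44. For Krt1 they were 0.42, 0.42 and 0.36, and for Serpinb3b 0.81, 0.80 and 0.85. Of these 5 genes, the EpiRE difference from BRE was called for Ndufa4l2 (adjusted p = 0.0066) and not for the others. Tgm3 was at 1.09 in EpiRE and 0.88 in RERE but 0.20 in BRE, Stfa3 at 0.93, 0.93 and 0.00, and Wnt16 at -0.57, -0.50 and 0.25. Against BRE the EpiRE difference of these 3 was called (adjusted p = 0.000144, 0.00533 and 6.11e-07). Other named genes lay further from WT in BRE. In EpiRE, RERE and BRE Serpinb12 was at 0.69, 0.75 and 1.39 and Mt4 at 0.40, 0.31 and 1.03. Csrp2 was at -0.61, -0.54 and -1.40 and Smim24 at -0.48, -0.05 and -1.22. The EpiRE difference from BRE was called for each by limma. In all it was called for 16 of the 24 named genes, and 22 had the same sign in BRE. Pnpla3 was at -0.70 in EpiRE, 0.09 in RERE and 0.21 in BRE, and Snord16a at 0.66, 0.17 and 0.21. Against RERE the EpiRE difference of neither gene passed (limma adjusted p = 0.0536 for Pnpla3 and 0.82 for Snord16a). The EpiRE difference from BRE was called for both (adjusted p = 7.66e-05 and 0.0237). EpiRE and BRE share the stopFL alleles and differ in both K14Cre and Syt10-Cre, so these drivers cannot be told apart in that difference.

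**Figure D5:**
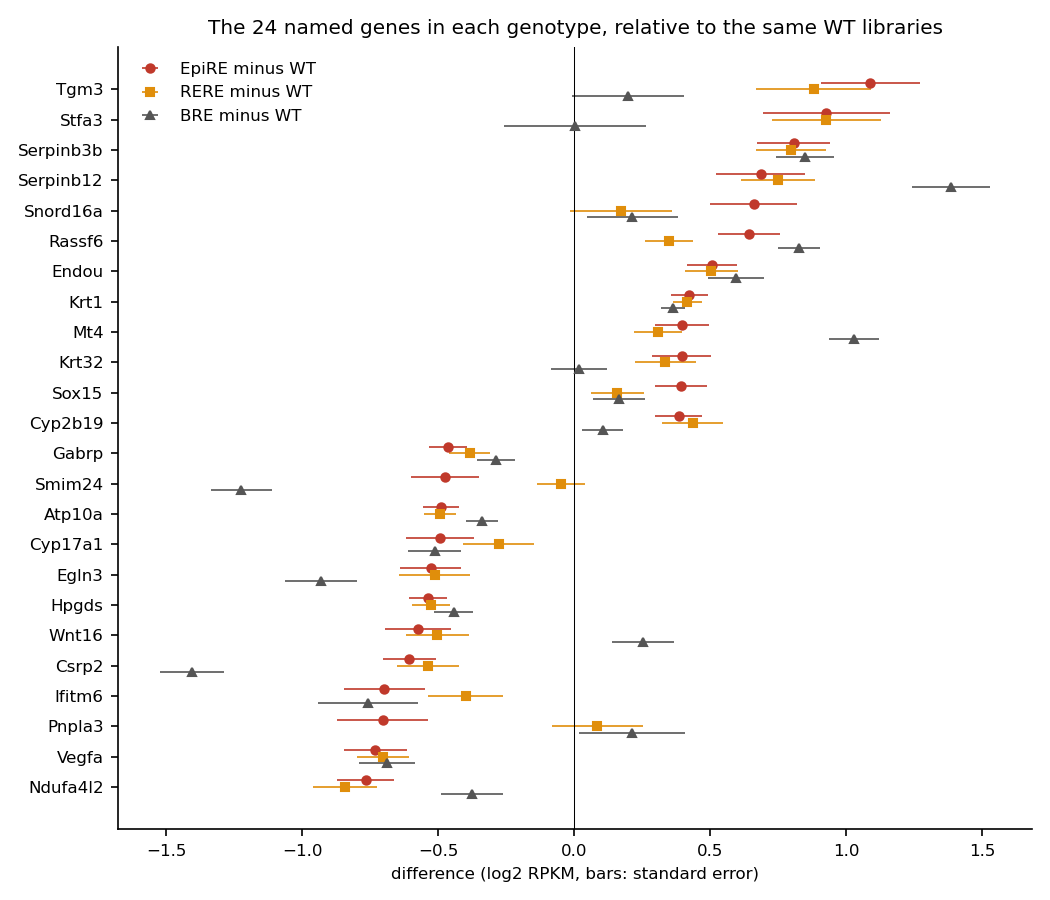
Differences from the same 24 WT libraries (log2 RPKM, x axis, with standard errors) of the 24 genes named by the largest level differences, for EpiRE (circles), RERE (squares) and BRE (triangles). Krt1 lies at 0.42, 0.42 and 0.36, and Pnpla3 at -0.70 in EpiRE, 0.09 in RERE and 0.21 in BRE.

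Called genes were also placed along the genome, since linked segments can travel with a modified allele. Within 10 Mb of Arntl on chromosome 7, 3 of 98 tested genes were called in level (3.06%), and within 10 Mb of Syt10 on chromosome 15, 7 of 145 (4.83%), beside 2.23% of all. The 3 near Arntl were Scube2 (-0.54), Tmc7 (0.34) and Eri2 (0.20). Those near Syt10 were Pnpla3, Endou, Fbln1 (-0.50), Mapk12 (-0.31), Dennd6b (0.28), Ano6 (-0.13) and Arhgap8 (chr15:84720052-84772207). Arhgap8 ranged from -0.04 to 1.06 log2 RPKM in EpiRE (median 0.48) and from 0.47 to 1.64 in WT (median 1.16), with 24 of 24 EpiRE libraries under the WT median, and its difference of -0.69 ± 0.08 had the smallest adjusted p of all genes (1.45e-06). In RERE and BRE Arhgap8 was at -0.56 and -0.57 from WT. RERE and BRE carry Syt10-Cre tg/wt as WT does. Chromosome 15 had the highest share of called genes, 21 of 441 (4.76%), and chromosome 7 had 18 of 864 (2.08%). None of the genes within 20 Mb of either site was called between EpiRE and RERE, where 1 of 11042 genes was called in all (0.00906%). With so few calls, that contrast cannot tell these windows from the rest of the genome. The part of linkage in the level calls was not tested.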

How the data were processed

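Epidermis was separated from back skin with dispase, and polyadenylated RNA was sequenced from 4 mice per genotype and time, per the labels. The submitters' processing notes name Trimmomatic 0.36, HISAT2 2.2.1, SAMtools 1.3.1, featureCounts 1.6.0, edgeR and the mm10 build. The sources used here do not state if molecular identifiers or strand entered the counting. Values deposited by the authors are log2 RPKM, in 1 table per genotype. The authors' deposited p-values and q-values of rhythm tests were not used for any result, and 96 columns with library codes were not used. Reads were recovered from the low values of 22479 of 22497 genes (99.92%), with 99.98% of values within 0.1 read of a whole number, and a gene with no read has a slightly different floor in each genotype's table (median -10.24 in EpiRE and -10.29 in WT). Precision is limited by 4 mice per time and by 11.41 to 18.45 M reads a library (M for mega).

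Genes averaging 1 RPKM or more were fitted with limma 3.58.1 (R 4.3.3; moderated test with a mean trend, Benjamini-Hochberg adjustment over all tested genes, called under 0.05), with genotype and CT as factors, and with their interaction in the interaction test. Named genes had to be called, have a mean of at least 5 RPKM and have the same sign at 5 of 6 times or more; the 12 largest rises and 12 largest falls, the 12 interaction genes of smallest p with that mean, up to 4 called members of each list, the clock genes and called genes near Arntl and Syt10 were named. Of the interaction genes, 1 is not reported here. Other named genes were chosen after their values were seen. The members and lists were chosen with earlier results of these data known. The fits were tested on simulated data. Alternatives were other scalings, filters, models and left-out libraries. Figures used Python 3.11.15, pandas 2.3.3 and matplotlib 3.10.9.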

Additional observations from a re-analysis of the deposited data

Results flagged for a closer look

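The time course differed between EpiRE and WT, by limma's test of the interaction of genotype and CT, for the 11 named genes given here. The adjusted p was 1.06e-05 for Arntl, 1.06e-05 for Pdxk, 8.47e-05 for Cry1, 9.77e-05 for Tnxb and 0.000302 for Il33. It was 0.000392 for Nr1d1, 0.000444 for Tef, 0.000611 for Rdh12, 0.000848 for Per2, 0.000898 for Cry2 and 0.0012 for Dbp.

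Among these genes, 9 of 132 groups of 4 mice held a library whose gap to the others exceeded Dixon's 95% critical value for 4 samples, and chance gives about 1 in 20 groups. In EpiRE, Arntl was at 4.60 log2 RPKM at CT20 in replicate 1 (others 4.04 to 4.11), and Nr1d1 was at 3.56 in that same library (others 5.47 to 5.86). Dbp was at 1.34 at CT0 in replicate 3 (others 4.13 to 4.51), and Cry1 was at 4.00 in that library (others 3.51 to 3.56). Cry1 was at 3.21 at CT8 in replicate 1 (others 3.76 to 3.83), Pdxk at 2.82 at CT8 in replicate 3 (others 2.48 to 2.52) and Tnxb at 5.52 at CT16 in replicate 1 (others 5.80 to 5.82). In WT, Rdh12 was at 4.18 at CT12 in replicate 2 (others 3.91 to 3.94) and Cry2 was at 4.33 at CT12 in replicate 3 (others 4.44 to 4.45).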

How the results depend on the processing

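The level count of 247 was 238 to 293 with the other scalings and models, save 149 with no CT term and 128 among genes of at least 5 RPKM. With no filter it was 4303 (3808 higher, or 88.5%, beside 41.7% in the reported count), of which 3490 had 0 reads in all 48 libraries and differ only by the floor of the tables. Without the 12 libraries of 1 replicate number it was 55 to 230, and without 1 library 203 to 284. Without replicate 1 of both genotypes, 56.1% of calls were higher. The interaction count of 109 was 64 with no filter, 220 with all 96 libraries and 174 with a 24 h cosine; it was 9 to 163 without 1 replicate number and 74 to 175 without 1 library. The spread count of 0 was 296 with no filter, 0 to 1 without 1 replicate number and 0 to 7 without 1 library. EpiRE against RERE gave 347 with no filter, 0 at 5 RPKM, 2 with centring, 2 with limma-voom on recovered reads (chosen after seeing the data) and 0 to 1 without 1 replicate number. EpiRE against BRE gave 8025 with no filter and 2631 to 3448 without 1 replicate number. Calls near Arntl numbered 1 within 5 Mb and 7 within 20 Mb, and near Syt10 3 and 16. Beyond the floor and the smaller samples or gene sets, the cause was not tested.

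Replicate numbers did not pair EpiRE with WT libraries: 2 of 24 pairs correlated over 0.1 (median -0.08), and 11 of 48 libraries correlated best with their own number. That comparison cannot see likeness among mice of 1 genotype. In WT at CT16 the chi-square per degree of freedom was 8.44 between replicates 1 and 2 and 4.22 between 3 and 4. Across these pairs it was 19.04 to 24.83. At CT0 the WT values were 14.29 and 37.70, and 20.67 to 32.08 across. The part of such likeness in the calls was not tested. With the replicate number as a block, limma called 238 genes in level, 92 in the interaction, 0 in spread, 1 against RERE and 3695 against BRE. No called difference changed direction in the settings run, and the level difference of Per2, which was not called, changed sign in 1 of them.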

Other observations

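The genes in this paragraph were chosen after their values were seen. Of all tested genes, 2.23% were called in level in either direction. Transcription factors of body pattern included called genes. Of 20 tested Hox genes, Hoxc4 (0.40), Hoxc6 (0.21) and Hoxc8 (0.33) were higher in EpiRE by limma's test. Hoxc13 (-0.54), a factor of the hair follicle, was lower, while Hoxc5 (0.31) did not pass that test (adjusted p = 0.0668). The called Hoxc genes lie together on chromosome 15, 13.08 to 13.18 Mb from Syt10. No Hoxa or Hoxb gene was called, and the part of linkage was not tested. Among 3 T-box genes, Tbx3 was higher by 1.49 log2 units (adjusted p = 0.0384), with medians of 1.96 in EpiRE and 1.40 in WT and a lowest WT library at -5.27, and Tbx1 was lower, at -0.96 (adjusted p = 0.0018). Gli1, a target and effector of hedgehog signalling, was at -0.86 (adjusted p = 0.000115), and Cdon, which encodes a hedgehog co-receptor, at 0.23 (adjusted p = 0.000734), of 7 hedgehog genes tested. Krt2, a keratin of upper suprabasal layers, was at 0.97 in EpiRE, 1.19 in RERE and -1.37 in BRE, each against the same WT libraries.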
